A study of Mus musculus with 6 samples.

Results

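The small leucine-rich proteoglycans (SLRPs) are secreted matrix proteins, and 10 of their genes are described here: Dcn, Bgn, Aspn, Fmod, Lum, Prelp, Omd, Kera, Ogn and Podn. A probe set, the group of short oligonucleotides with which the array reads a transcript, was taken as a member where the platform annotation names only 1 of these genes. The rule found all 10 genes, of 18193 genes measured, on 21 probe sets, of 34945 that name 1 gene. It used no measured value. However, the 10 genes and the gene lists below were chosen with earlier results of these data known, so their counts are descriptive. RNA came from cultured mouse embryonic fibroblasts (MEFs), connective tissue cells taken from embryos, in 3 samples of Atxn3-KO MEFs, which carry a knockout of the deubiquitinase gene Atxn3, and in 3 samples of Atxn3-WT MEFs, and each sample was hybridized to 1 Affymetrix GeneChip mouse genome array. Both groups were grown in the same serum-containing medium, and the labels name no drug treatment. No Cre driver or transgene is named for the knockout. The labels and methods state neither the embryonic day nor the number of embryos behind each group. The comparison asks how transcripts of this family differ between Atxn3-KO and Atxn3-WT MEFs. Since the number of embryos is not stated, differences between embryos or cell isolates cannot be told apart from those of genotype. Levels are log2 values normalized by the authors, and a log2 fold change is the mean of Atxn3-KO minus the mean of Atxn3-WT.

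The SLRP core proteins share a curved stack of leucine-rich repeats, and most carry chondroitin sulfate, dermatan sulfate or keratan sulfate chains. They bind collagen fibrils and set fibril diameter and spacing, and several also bind growth factors of the TGF-β family or innate immune receptors. Fibroblasts are a main source of decorin and biglycan in connective tissue, whereas keratocan is best known from the cornea.

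Of the 10 SLRP genes described here, 9 were upregulated in Atxn3-KO MEFs compared with Atxn3-WT MEFs. Of the 21 probe sets, 19 rose and 0 fell at an adjusted p under 0.05 (limma, Benjamini-Hochberg), whereas 12.5% of all 45037 probe sets tested rose and 13.5% fell. On 20 of the 21, every Atxn3-KO array was above every Atxn3-WT array, which held for 19.2% of all probe sets, and on 0 was the order reversed, which held for 21.9%. With the cut-offs of the study itself, 2-fold and an adjusted p up to 0.001, 9 SLRP probe sets were higher, against 0.795% of all probe sets, and 0 were lower, against 0.515%. These 9 belong to 4 genes, Aspn, Fmod, Dcn and Ogn, whereas 1.28% of all genes measured were higher and 0.649% lower by these cut-offs. By the probe set with the highest mean over the 6 arrays, which stands for a gene below, the 9 genes were higher, with a median log2 fold change of 0.71 over the 10, whereas 17.1% of all genes were higher and their median was 0.0021. This choice uses the Atxn3-KO values too, so it can favor a probe set that rose more. For Fmod, another probe set (1415939_at) was brighter in Atxn3-WT MEFs, at 6.37 against 6.17, and its log2 fold change was 1.45. The measured log2 fold changes were 2.37 for Aspn, 2.25 for Fmod, 1.91 for Dcn, 1.24 for Ogn and 0.81 for Omd, and of 0.60 for Lum, 0.31 for Prelp, 0.23 for Podn and 0.14 for Bgn. Those of Aspn and Omd are measured against dim Atxn3-WT values, at or below a background level defined below, and Lum was dim in both groups, so these have no exact size and no rank among the others. Kera, also dim in both groups, was not called (log2 fold change -0.13).

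**Figure D1:**
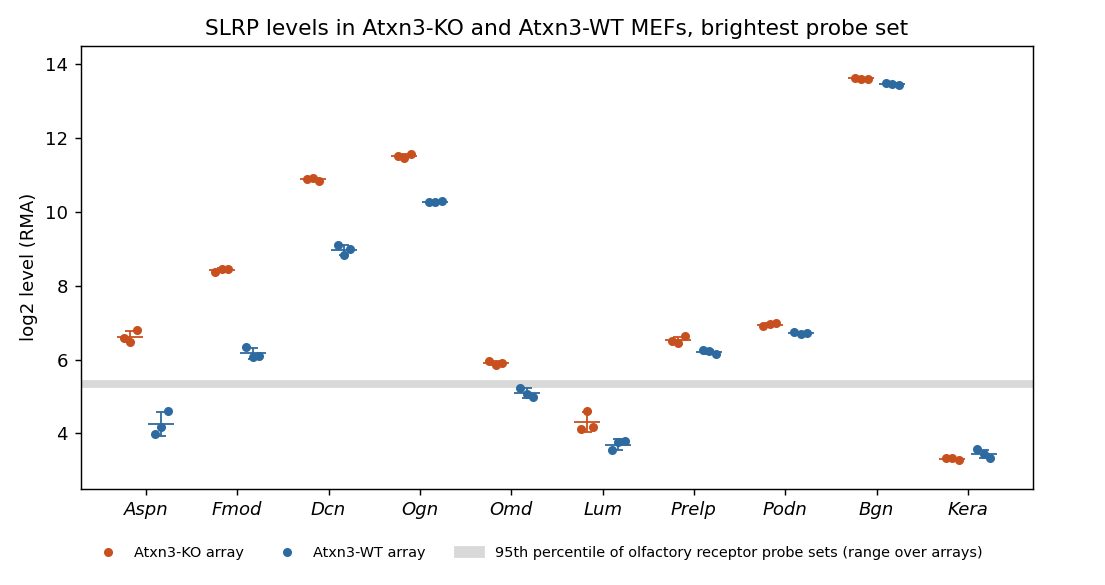
Log2 level of the probe set that stands for each SLRP gene on every array, with Atxn3-KO to the left of Atxn3-WT for each gene; points are arrays, horizontal lines group means, error bars 1 SD, and the grey band the range of the dim level, 5.26 to 5.43. For each gene but Kera, the 3 Atxn3-KO points lie above the 3 Atxn3-WT points, by 2.37 for Aspn and by 0.14 for Bgn between the means.

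The targeted gene bore out the labels. The brighter Atxn3 probe set had 3.60, 3.43 and 3.73 in Atxn3-KO MEFs of replicates 1, 2 and 3, against 6.53, 6.81 and 6.66 in Atxn3-WT MEFs, while a dimmer one did not pass the test (log2 fold change -0.35, adjusted p = 0.117), and where the deletion lies relative to these probes was not known. Array medians were 5.97 to 6.0, and arrays within a group correlated at 0.998 to 0.999. The replicates are called biological, but nothing says they came from separate embryos or cultures, so the spread that enters the p-values is that between these samples alone and may be technical. In bulk samples, fewer cells of a type and less RNA per cell cannot be told apart. All 12 fibroblast markers were above the dim level defined below on at least 1 array. Of them, 4 were higher and 6 lower, against 17.1% of all genes higher and 14.7% lower. The called markers included Thy1 at -4.21 and Prrx1 at 1.11. The sum of the 12, on the log2 scale, was 16.11 to 16.15 in Atxn3-KO MEFs and 16.21 to 16.24 in Atxn3-WT MEFs. Summed adipocyte markers were at 8.60 to 8.72 in Atxn3-KO MEFs and 7.88 to 8.10 in Atxn3-WT MEFs, with Pparg at a log2 fold change of 1.00 and Adipoq and Cidec, 2 of the 4 measured, dim on all arrays. For osteoblast markers the sums were 7.09 to 7.16 in Atxn3-KO MEFs and 6.97 to 7.04 in Atxn3-WT MEFs, with Ibsp and Dmp1, 2 of the 4 measured, dim on all arrays. Chondrocyte markers summed to 9.35 to 9.43 in Atxn3-KO MEFs and 9.23 to 9.32 in Atxn3-WT MEFs, and 4 of 8 (Acan, Hapln1, Comp and Matn1) were dim on all arrays. Tendon cell markers summed to 8.65 to 8.80 in Atxn3-KO MEFs and 8.86 to 8.88 in Atxn3-WT MEFs, with Tnmd, 1 of 4, dim. Of the 4, 1 was higher (Scx, log2 fold change 0.45, adjusted p = 0.00536, limma) and 1 lower (Mkx, -0.62, adjusted p = 2.30e-04, limma). Pericyte markers summed to 8.74 to 8.95 in Atxn3-KO MEFs and 8.49 to 8.59 in Atxn3-WT MEFs, with 3 of 4 dim. The 6 epithelial markers summed to 9.32 to 9.44 in Atxn3-KO MEFs and 8.99 to 9.07 in Atxn3-WT MEFs, with 2 of 6 called higher, Krt18 (log2 fold change 1.27, adjusted p = 2.04e-05, dim in Atxn3-WT) and Epcam (0.38, adjusted p = 0.00167), and 3 of 6 (Cdh1, Krt8 and Krt14) dim on all arrays. Of 8 macrophage, 6 endothelial and 5 skeletal muscle markers, 0 passed the test. Among the macrophage markers, 4 of 8 were dim on all arrays, Ptprc and Adgre1 included. Cd14, Csf1r, Lyz2 and Cd68 were above the dim level on all arrays. Among the endothelial markers, 4 of 6 were dim on all arrays, Pecam1 and Cdh5 included, whereas Kdr was above the dim level on all. For skeletal muscle, 3 of 5 were dim on all arrays, whereas Acta1 and Des were above the dim level on all. The part of these markers in the SLRP changes was not tested.

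The proximal promoters of 4 members are shown because they differ in size of change and because some share a locus. By the probe set that stands for each gene, Fmod rose 4.77-fold, Aspn at least 2.40-fold and Bgn 1.10-fold. The other Fmod probe sets rose less. Ogn lies in the same gene cluster as Aspn. The sequences are the 250 bases before the annotated start in RefSeq (GRCm38.p6), all on the plus strand: Fmod chr1:134037004-134037253, Aspn chr13:49544193-49544442, Ogn chr13:49607765-49608014 and Bgn chrX:73483351-73483600. Capitals mark matches on either strand to the TATA box letters TATAAA, the CCAAT box, the GC box letters GGGCGG, the AP-1 letters TGANTCA or the SMAD letters CAGACA.
Fmod: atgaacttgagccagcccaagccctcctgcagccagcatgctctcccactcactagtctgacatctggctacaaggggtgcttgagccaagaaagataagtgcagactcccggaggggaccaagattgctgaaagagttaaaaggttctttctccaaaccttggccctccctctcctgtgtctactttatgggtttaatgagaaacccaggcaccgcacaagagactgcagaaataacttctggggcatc
Aspn: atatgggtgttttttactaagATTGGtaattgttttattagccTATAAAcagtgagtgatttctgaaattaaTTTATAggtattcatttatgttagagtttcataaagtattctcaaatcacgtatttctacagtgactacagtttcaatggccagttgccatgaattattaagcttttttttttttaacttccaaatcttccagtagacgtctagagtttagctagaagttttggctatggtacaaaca
Ogn: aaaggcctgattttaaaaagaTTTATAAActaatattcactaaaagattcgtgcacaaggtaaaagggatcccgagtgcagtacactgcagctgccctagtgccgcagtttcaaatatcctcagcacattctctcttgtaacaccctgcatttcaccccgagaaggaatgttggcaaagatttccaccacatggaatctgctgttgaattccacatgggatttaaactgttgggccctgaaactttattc
Bgn: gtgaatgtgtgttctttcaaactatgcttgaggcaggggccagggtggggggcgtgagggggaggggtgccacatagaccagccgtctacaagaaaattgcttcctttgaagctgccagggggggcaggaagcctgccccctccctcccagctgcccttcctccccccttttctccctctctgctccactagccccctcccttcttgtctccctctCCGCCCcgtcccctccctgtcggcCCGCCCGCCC
The Bgn window held 3 matches to GGGCGG, 2 of them overlapping, all within 34 bases of the start, and a GC content of 64.4%. The Ogn window held 2 matches to TATAAA, which overlap on opposite strands between 229 and 222 bases before the start, and the Aspn window held 2 matches to TATAAA and 1 to CCAAT. The Fmod window held none. Aspn had a GC content of 30% and Ogn of 42%, below the median of 52.4% over all 32851 promoters, and Fmod had 51.2%. RefSeq rows were matched for 8 of the 10 genes, with 9 windows, and none of the 9 held TGANTCA or CAGACA. Over all promoters of this length, TATAAA occurred in 12.4%, CCAAT in 33.8%, GGGCGG in 32.7%, TGANTCA in 6.75% and CAGACA in 17.1%. These matches describe letters in a window and are not binding sites.

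Among the class I members, decorin and asporin transcripts were upregulated strongly and biglycan slightly. Decorin binds collagen type I fibrils and TGF-β. Its main Dcn probe set (1449368_at) had 10.89, 10.92 and 10.84 in Atxn3-KO MEFs, against 9.10, 8.83 and 9.0 in Atxn3-WT MEFs. All Atxn3-KO arrays were above all Atxn3-WT arrays, with means of 10.88 ± 0.044 in Atxn3-KO and 8.98 ± 0.14 in Atxn3-WT (SD, n = 3 each), which is 3.75-fold higher (log2 fold change 1.91, standard error 0.073, adjusted p = 4.87e-06, limma). Asporin has a run of aspartate residues, and it binds collagen and calcium. The main Aspn probe set (1416652_at) had 6.58, 6.49 and 6.79 in Atxn3-KO MEFs, against 3.98, 4.18 and 4.60 in Atxn3-WT MEFs. Without overlap between the groups, its log2 fold change was 2.37 (standard error 0.15, adjusted p = 5.99e-05, limma). The 3 Atxn3-WT values were at or below the dim level, defined per array as the 95th percentile of 44 probe sets that name olfactory receptor genes, receptors of nasal sensory neurons. That level was 5.26 to 5.43 over the arrays. Where a group is dim on all its arrays only a bound holds, from the mean of the brighter group and the mean dim level, and Aspn was at least 2.40-fold higher in Atxn3-KO MEFs. Biglycan, which carries chondroitin or dermatan sulfate chains and can signal through Toll-like receptors when released, rose only slightly. The Bgn probe set with the highest mean (1416405_at) had 13.64, 13.61 and 13.60 in Atxn3-KO MEFs, against 13.50, 13.48 and 13.45 in Atxn3-WT MEFs. Among all probe sets these means were at percentile 99.5 in Atxn3-KO MEFs and 99.4 in Atxn3-WT MEFs. Whether the array reads a change in full at so high a level was not tested. The Bgn groups did not overlap, and the change was 1.10-fold (log2 fold change 0.14, standard error 0.041, adjusted p = 0.0421, limma). This call was lost whichever single array was left out, with adjusted p from 0.0679 to 0.127 and log2 fold changes from 0.13 to 0.16.

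The class II members, which are mostly substituted with keratan sulfate, held Fmod, with a clear rise, and 2 genes that were dim in both groups, Lum and Kera. Fibromodulin binds fibrillar collagen, steers its cross-linking and is abundant in tendon and cartilage. The main Fmod probe set (1456084_x_at) had 8.38, 8.46 and 8.45 in Atxn3-KO MEFs, against 6.35, 6.08 and 6.09 in Atxn3-WT MEFs. The groups were far apart, at 8.43 ± 0.043 in Atxn3-KO and 6.17 ± 0.15 in Atxn3-WT (SD, n = 3 each), or 4.77-fold higher by this probe set (log2 fold change 2.25, standard error 0.078, adjusted p = 3.18e-06, limma). The other Fmod probe sets rose less, with measured log2 fold changes from 1.13 to 1.48, as described below. Osteomodulin (osteoadherin) is a keratan sulfate proteoglycan of mineralized tissue. Omd had 5.96, 5.85 and 5.92 in Atxn3-KO MEFs, against 5.24, 5.07 and 4.98 in Atxn3-WT MEFs (log2 fold change 0.81, standard error 0.073, adjusted p = 2.60e-04, limma). Its Atxn3-WT values were dim on all 3 arrays, so the rise was at least 1.47-fold. Prelp encodes a protein that binds heparan sulfate and collagen. Its main probe set (1416322_at) had 6.51, 6.44 and 6.63 in Atxn3-KO MEFs, against 6.26, 6.23 and 6.15 in Atxn3-WT MEFs, a 1.24-fold rise (log2 fold change 0.31, standard error 0.061, adjusted p = 0.00872, limma). The groups did not overlap. Lumican, a corneal and dermal proteoglycan that keeps fibrils thin and evenly spaced, was dim in both groups. Lum had 4.11, 4.61 and 4.18 in Atxn3-KO MEFs, against 3.54, 3.75 and 3.80 in Atxn3-WT MEFs (log2 fold change 0.60, standard error 0.14, adjusted p = 0.0164, limma). The groups did not overlap, but no fold is given because both lie at or below the dim level, and without Atxn3-WT replicate 1 the Lum call was lost (log2 fold change 0.52, adjusted p = 0.0594). Kera had 3.32, 3.33 and 3.28 in Atxn3-KO MEFs, against 3.56, 3.44 and 3.33 in Atxn3-WT MEFs. The Kera groups overlapped, at dim levels throughout, and the difference of -0.13 had a 95% confidence interval of -0.28 to 0.018 (adjusted p = 0.187, limma).

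The remaining 2 genes belong to classes III and V. Osteoglycin (mimecan) is a keratan sulfate proteoglycan that takes part in collagen fibril assembly. The main Ogn probe set (1419663_at) had 11.51, 11.47 and 11.56 in Atxn3-KO MEFs, against 10.27, 10.28 and 10.28 in Atxn3-WT MEFs. The replicates lay close together, with means of 11.51 ± 0.048 in Atxn3-KO and 10.28 ± 0.0094 in Atxn3-WT (SD, n = 3 each), and Ogn was 2.36-fold higher (log2 fold change 1.24, standard error 0.044, adjusted p = 3.54e-06, limma). Podocan is a collagen-binding SLRP first described in the kidney. Podn had 6.90, 6.95 and 6.99 in Atxn3-KO MEFs, against 6.75, 6.68 and 6.72 in Atxn3-WT MEFs, without overlap (1.17-fold, log2 fold change 0.23, standard error 0.046, adjusted p = 0.00979, limma).

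The Fmod probe sets did not all move by the same amount. The change of the probe set that stands for the gene was compared with that of each other probe set of the gene, within arrays, and 8 of 11 SLRP pairs differed at an adjusted p under 0.05 (limma), against 14.1% of 16752 such pairs on the array. Of these pairs, 4 hold a probe set that was dim in a group, where the size of a change is not exact. Among the 7 SLRP pairs without one, 4 differed, all of them of Fmod, against 13.3% of 10426 such pairs on the array. The 5 Fmod pairs share their brighter probe set and all differed, by 0.78 to 1.13 on the log2 scale, the pair at 1.13 with a probe set dim in Atxn3-WT MEFs. That shared probe set was chosen on the same values, Atxn3-KO arrays included, so the tests of these pairs are not independent of the choice. All 6 Fmod probe sets were higher in Atxn3-KO MEFs, with log2 fold changes from 1.13 to 2.25, and 5 of them carry the suffix x, which the maker gives to probes that may cross-hybridize. The Fmod probe set at 1.13 was dim on all Atxn3-WT arrays and rose at least 1.39-fold. The Fmod probe set without that suffix (1415939_at) had 7.95, 7.64 and 7.86 in Atxn3-KO MEFs, against 6.60, 6.20 and 6.29 in Atxn3-WT MEFs. Its rise of 1.45 (standard error 0.12, adjusted p = 1.67e-04, limma) was smaller than that of the main one, and the mean of all Fmod probe sets rose by 1.50. The other Dcn probe set (1441506_at) was dim on every array, with 4.34, 4.33 and 4.18 in Atxn3-KO MEFs, against 3.98, 4.07 and 4.17 in Atxn3-WT MEFs. It did not pass the test (0.21, 95% confidence interval 0.052 to 0.37, adjusted p = 0.0597) and, being dim, does not measure the change of Dcn. An average that includes this dim probe set was 1.06. The other Aspn probe set (1448421_s_at), dim in both groups, had 4.23, 4.56 and 5.13 in Atxn3-KO MEFs, against 3.25, 3.15 and 3.32 in Atxn3-WT MEFs. It was higher in Atxn3-KO MEFs (adjusted p = 0.00224, limma), and since it was dim throughout, whether it moved as the main one did cannot be read from it. The second Prelp probe set (1416321_s_at) had 5.69, 5.61 and 5.90 in Atxn3-KO MEFs, against 5.18, 4.90 and 5.06 in Atxn3-WT MEFs, with a measured log2 fold change of 0.69 (adjusted p = 0.00180, limma). The Atxn3-WT values of this probe set were dim on all arrays, so its rise was at least 1.30-fold, and averaged over its probe sets Prelp rose by 0.50. The Ogn pair (1.24 and 1.21, adjusted p of the difference = 0.775) and the 3 Bgn probe sets (0.14, 0.19 and 0.22, adjusted p of the differences = 0.651 and 0.427) were not shown to differ, and the other Bgn probe sets passed with adjusted p = 0.0197 and 0.00894.

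**Figure D2:**
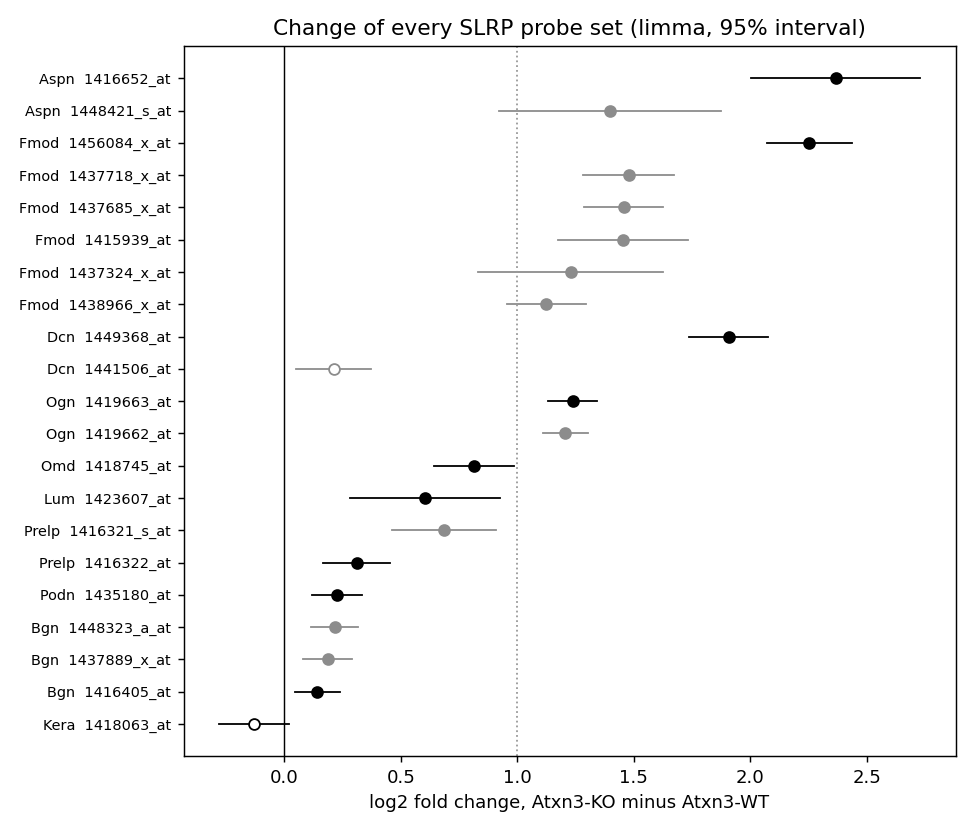
Log2 fold change, Atxn3-KO minus Atxn3-WT, of all 21 SLRP probe sets, grouped by gene, with 95% confidence intervals; black marks the probe set that stands for a gene, grey the others, open points were not called at an adjusted p under 0.05, and the dotted line is 2-fold. The 6 Fmod probe sets run from 1.13 to 2.25, the Dcn probe sets stand at 1.91 and, for the one dim on every array, 0.21, and the Kera interval reaches past 0.

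Most members lie in gene clusters, and the neighbours of a called member were not always called. On chromosome 13, Aspn (49544443-49567565), Omd (49582462-49592612) and Ogn (49608015-49624501; all GRCm38.p6) follow each other, and all 3 were higher. Cenpp, a centromere protein gene whose annotated span of 49464025-49652950 includes all 3, was at 0.32 on the same scale (adjusted p = 0.00338, limma). Ecm2, a matrix protein gene 11.7 kb before Aspn, was dim on all 6 arrays (0.089, adjusted p = 0.448), and past Ogn, Nol8 had 0.093 (adjusted p = 0.175) and Iars -0.11 (adjusted p = 0.128). Of these 4 genes, Cenpp alone passed the test, while Ippk, the next gene before Cenpp, was at 0.51 (adjusted p = 2.74e-04). On chromosome 10, Dcn (97479500-97518163), Lum (97565501-97572703) and Kera (97606962-97613688) were at 1.91, 0.60 and -0.13, and the next gene, Epyc, an SLRP-family gene of cartilage, was at 0.024 (adjusted p = 0.802). Lum, Kera and Epyc were dim on all 6 arrays, so only the Dcn change is measured above the dim level there. On chromosome 1, Fmod (134037254-134048280) and Prelp (133910304-133930102) lie 107 kb apart, at 2.25 and 0.31. Optc, the opticin gene 0.616 kb from Prelp, had 5.56, 5.61 and 5.79 in Atxn3-KO MEFs, against 5.32, 5.14 and 5.39 in Atxn3-WT MEFs (log2 fold change 0.37, adjusted p = 0.0162, limma), with 2 of the 3 Atxn3-WT values dim, and Btg2, an antiproliferative gene past Fmod, was at 0.26 (adjusted p = 0.0119). Bgn lies alone on chromosome X (73483601-73495936), between Haus7 at -0.24 (adjusted p = 0.0202) and Atp2b3, dim on all 6 arrays, at 0.063 (adjusted p = 0.568). Podn, at 0.23, lies on chromosome 4 (108014793-108031954). Its neighbours Czib, Echdc2, Cpt2 and Scp2, a sterol carrier protein gene, were also higher, at 0.83, 0.53, 0.29 and 0.24 (adjusted p = 7.82e-05, 0.00152, 0.00277 and 0.0203, limma). Slc1a7, at 0.038, and Zyg11a, dim on all 6 arrays, at 0.0095, were not called. Of 28 measured genes within 3 protein-coding genes of an SLRP gene, members of the 10 left out, 9 were higher and 2 lower at this threshold, against 17.1% and 14.7% of all genes. None of the 28 passed the thresholds of the study, against 1.28% of all genes higher and 0.649% lower, and 8 of the 28 were dim in both groups.

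**Figure D3:**
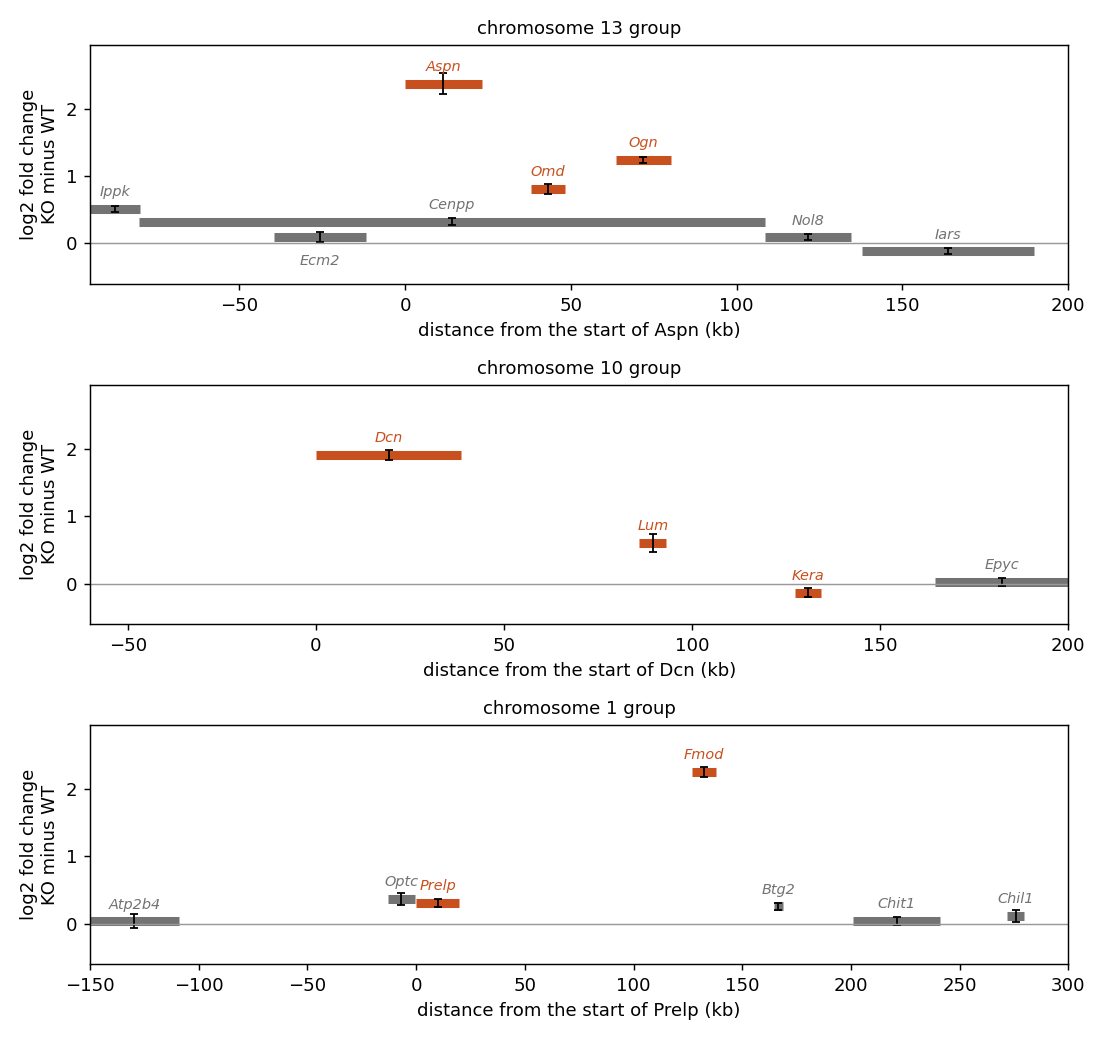
Log2 fold change, Atxn3-KO minus Atxn3-WT, along the 3 SLRP gene groups, against distance from the start of Aspn, Dcn or Prelp in kb; bars span genes, error bars are standard errors, SLRP members are orange and neighbours grey. Aspn, Omd and Ogn stand at 2.37, 0.81 and 1.24, with Nol8 at 0.093 past Ogn. Ecm2, Lum, Kera and Epyc were dim on all 6 arrays.

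SLRP-family genes outside the 10 were mostly dim. Of 6 measured, 4 were dim in both groups, where the size of a change is not exact. Of the 6, 1 was higher (Optc, above) and 0 were lower, against 17.1% of all genes higher and 14.7% lower. The median log2 fold change of the 6 was 0.074. Genes that build the sugar chains of SLRPs were higher more often than lower. Of 21 measured genes for the linker and for chondroitin or dermatan sulfate, 10 were higher and 2 lower, with a median of 0.19, against 17.1% of all genes higher and 14.7% lower. Csgalnact1 encodes the enzyme that starts a chondroitin chain on the linker. It had 7.72, 7.71 and 7.90 in Atxn3-KO MEFs, against 6.31, 6.27 and 6.25 in Atxn3-WT MEFs, or 2.82-fold higher (log2 fold change 1.50, standard error 0.061, adjusted p = 6.20e-06, limma). The groups did not overlap. Its paralogue Csgalnact2 rose by 0.50, the linker galactosyltransferase gene B3galt6 by 0.48 and the chondroitin 4-O-sulfotransferase gene Chst11 by 0.46 on the log2 scale (adjusted p = 2.82e-04, 4.23e-04 and 3.78e-04). Of 9 keratan sulfate genes, 4 were higher and 0 lower, with a median of 0.13, against the same shares of all genes. Chst1, the sulfotransferase that acts on galactose of keratan sulfate, had 10.12, 10.11 and 9.91 in Atxn3-KO MEFs, against 8.60, 8.54 and 8.79 in Atxn3-WT MEFs (2.65-fold, log2 fold change 1.40, standard error 0.086, adjusted p = 4.29e-05, limma). No Atxn3-KO value fell within the Atxn3-WT range. The galactosyltransferase genes B4galt1 and B4galt4 rose by 0.48 and 0.24, and the sulfotransferase gene Chst2 by 0.23 (adjusted p = 2.15e-04, 0.0114 and 0.0264).

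Collagen genes went both ways. Of 14 genes for fibril, fibril-associated and type VI collagens, 4 were higher and 4 lower, against 17.1% of all genes higher and 14.7% lower. The median of the 14 was -0.069. The 4 higher were the collagen VI genes Col6a1, Col6a2 and Col6a3, and Col5a2 (log2 fold change 0.19). Col6a3, a chain of the beaded microfibril collagen that binds decorin and biglycan, averaged 11.20 ± 0.095 in Atxn3-KO MEFs and 8.53 ± 0.076 in Atxn3-WT MEFs (SD, n = 3 each), 6.35-fold higher (log2 fold change 2.67, adjusted p = 8.08e-07, limma). Col12a1, Col5a3 and Col3a1 fell by 0.46, 0.42 and 0.28 (adjusted p = 0.00162, 6.93e-04 and 0.00296). Of the chains of collagen type I, Col1a2 was lower, at -0.26 (adjusted p = 0.00356, limma), and Col1a1 was at -0.096 (adjusted p = 0.271). Outside collagen VI, the called collagen genes were Col5a2, higher, and Col1a2, Col3a1, Col5a3 and Col12a1, lower. The 9 called SLRP genes were all higher. Of 13 genes for proteases that can cut SLRPs or for protease enhancers, 5 were higher and 4 lower, with a median of -0.0065. The shares over all genes were again 17.1% and 14.7%. The enhancers, which are not proteases, were Pcolce2, called higher, and Pcolce, called lower (log2 fold changes 0.25 and -0.16). Mmp2, the gelatinase A gene, averaged 11.65 ± 0.011 in Atxn3-KO MEFs and 10.45 ± 0.12 in Atxn3-WT MEFs (SD, n = 3 each, 2.30-fold, adjusted p = 2.15e-05). The aggrecanase genes split, with Adamts5 higher by 0.52 and Adamts4 at -0.47, and Adamts1 was at -0.74 (adjusted p = 3.68e-04, 2.57e-04 and 1.41e-04). Of 17 measured ligands and receptors that SLRPs bind, 3 were higher and 4 lower, with a median of -0.068, against the same shares of all genes. Bmp4, a bone morphogenetic protein gene, averaged 8.66 ± 0.041 in Atxn3-KO MEFs and 9.88 ± 0.054 in Atxn3-WT MEFs (SD, n = 3 each, log2 fold change -1.22, adjusted p = 5.58e-06). Ccn4 fell by 0.42 and Tlr4, a receptor for released biglycan, rose by 0.25 (adjusted p = 7.33e-04 and 0.0108). Bmp2, dim in both groups, was at -0.41 (adjusted p = 0.00175). Of the TGF-β genes, Tgfb1 was lower at -0.15 and Tgfb3 higher at 0.18 (adjusted p = 0.0415 and 0.0253, limma). Tgfb2, at 0.11, was not called (adjusted p = 0.110).

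**Figure D4:**
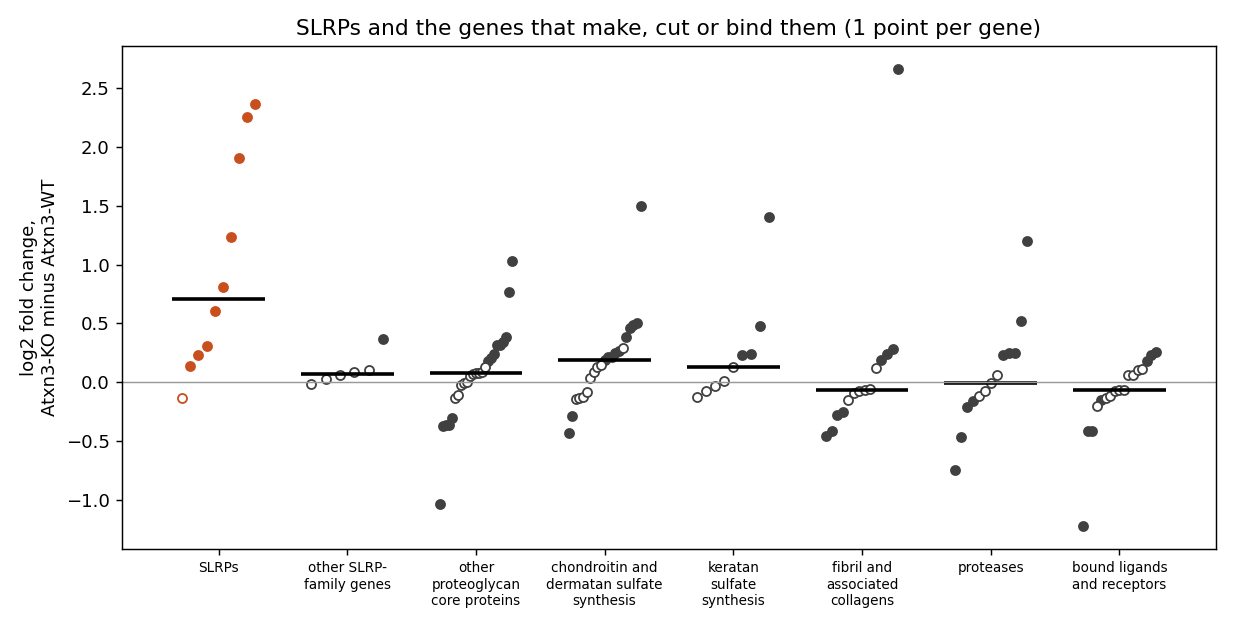
Log2 fold change, Atxn3-KO minus Atxn3-WT, of the SLRP genes (orange) and of genes that make, cut or bind them (grey), 1 point per gene, filled where the adjusted p was under 0.05; lines are list medians. The SLRP median is 0.71, and the other medians lie between -0.069 and 0.19. The collagen points include Col6a1, Col6a2 and Col6a3, and the protease points include the protease enhancers Pcolce and Pcolce2.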

How the data were processed

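Expression was measured on 6 arrays, 3 per genotype, with groups taken from the labels. The deposited log2 values were made by the authors with robust multi-array average (RMA): background correction, quantile normalization between arrays and a summary per probe set. A shift shared by all genes would be lost in this step. The versions of these tools were not given in the sources used here.

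On these values, Atxn3-KO minus Atxn3-WT was fitted with limma 3.58.1 (lmFit and eBayes, R 4.3.3) over 45037 probe sets, with 64 controls left out, no filter on low values and Benjamini-Hochberg adjustment over all of them. Array weights were equal, because the study's methods name a weighted linear model without its weights. Thresholds were an adjusted p under 0.05, and the study's 0.001 with 2-fold. Gene names came from the platform annotation, of which 34741 probe sets matched RefSeq (GRCm38.p6) by gene ID, and 932 probe sets naming several genes and 9160 naming none entered no gene count. All 10 members were named with every probe set, and from each list up to 4 genes with the largest absolute change among those called. Some other list genes were named for context. Promoter motifs were sought on both strands. The members and lists were chosen with earlier results of these data known. The fit was tested on simulated data. The number of arrays limits the precision. Alternatives were array weights, a replicate block, repeated quantile normalization, median centring, a filter on level, another variance model, a test against 2-fold, the mean of all probe sets of a gene, and leaving out each array.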

Additional observations from a re-analysis of the deposited data

How the results depend on the processing

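The count of SLRP probe sets higher at an adjusted p under 0.05 was 19, and it ranged from 13, with probe sets under the median level left out and so fewer to call, to 20 over 12 alternatives, and the count lower was 0 in all of them. Leaving out each array in turn gave 17 to 19 higher and 0 lower, 8 to 10 past the study's thresholds in place of 9, with 0 lower, and 7 to 8 pairs that differed in place of 8. When the fit tested against 2-fold itself, 5 probe sets passed in place of 9, and with probe sets under the median level left out, 4 pairs differed in place of 8. Replicate numbers did not pair the samples, since the deviations of arrays with the same number correlated at 0.02, -0.02 and -0.04. With the replicate number as a block, 18 probe sets were higher and 0 lower, 9 were higher past the study's thresholds and 0 lower, and 8 pairs differed. Of the genes, Bgn lost its call under the block (log2 fold change 0.14, adjusted p = 0.0906), and the cause was not tested. Bgn also lost it without each single array, and Lum without Atxn3-WT replicate 1, and no other gene's call was lost. No gene changed direction under any alternative run. Probe sets that name a member together with other genes gave no value, since there were 0 of them, and Aspn, Omd, Lum and Kera, all under the median level, gave none with such probe sets left out. Dim levels in both groups limit Lum and Kera, and dim Atxn3-WT levels limit Aspn and Omd.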

Other observations

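Proteoglycan core proteins outside the SLRP family moved in both directions. Of 25 measured, 9 were higher and 5 lower in Atxn3-KO MEFs at an adjusted p under 0.05 (limma), with a median log2 fold change of 0.076. Over all genes, 17.1% were higher and 14.7% lower. Sdc3, a membrane heparan sulfate proteoglycan, had 10.76, 10.80 and 10.72 in Atxn3-KO MEFs, against 9.77, 9.61 and 9.80 in Atxn3-WT MEFs (log2 fold change 1.03, adjusted p = 3.95e-05). Srgn, the serglycin gene of secretory granules, had 7.42, 7.55 and 7.42 in Atxn3-KO MEFs, against 8.56, 8.39 and 8.53 in Atxn3-WT MEFs (log2 fold change -1.03, adjusted p = 4.32e-05). Neither gene's groups overlapped. The glypican gene Gpc2 and the agrin gene Agrn were higher by 0.76 and 0.39 (adjusted p = 0.00374 and 6.52e-04). Gpc2 was dim on 2 Atxn3-WT arrays, so the size of its change is not exact.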
